A study of Homo sapiens with 61 samples.

Results

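The response to vincristine was followed in neurons that carried a scrambled control guide RNA (Control gRNA). This comparison rests on 10 of the 61 libraries of the study, 5 from untreated neurons and 5 from neurons given vincristine, chosen by their labels. Both came from WTC11, a widely used human iPSC line (reprogrammed cells able to form any tissue), turned into neurons by forced expression of the transcription factor NGN2. Both groups also carried the CRISPR interference machinery (a dead Cas9 that represses a gene instead of cutting it) and a lentivirus for the guide. On day 14 they received 5 nM vincristine or the vehicle DMSO, which the labels call untreated, and RNA was taken 16 hours later (the protocol text also speaks of 10 to 14 days of differentiation). All cultures come from 1 line, and the labels do not say whether replicates were separate differentiations, so p-values measure the spread between these libraries only. Of 58440 gene identifiers, 20759 had enough counts to be tested, 11987 had some counts but too few, and 25700 had none in these 10 libraries. The comparison asks which genes and pathways change when microtubules are poisoned in neurons whose guide has no target, down to genes that are barely expressed.

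Vincristine is a vinca alkaloid that binds tubulin and blocks the assembly of microtubules, the tracks of axonal transport; it is used against cancer and is known for damaging peripheral nerves. Axonal damage is sensed by the kinases DLK and LZK, which act through JNK on transcription factors such as JUN, ATF2 and ATF3, and this route can lead either to regrowth or to cell death. Cells also lower their own tubulin mRNAs when unassembled tubulin accumulates, a loop known as tubulin autoregulation.

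The 10 libraries held 38.9 to 88.4 M counts each, and mitochondrial genes took 5.98% to 6.31% of them in untreated and 6.41% to 7.25% in vincristine libraries. Levels below are in CPM, a gene's counts per M counts of its library after TMM scaling (a correction for library composition), and changes are log2 fold changes of vincristine over untreated with their standard error (SE). A gene is called when its p-value from the quasi-likelihood test of edgeR, adjusted over all genes tested, is under 0.05. Untreated replicate 2 and vincristine replicate 5 stood apart from the other 8 libraries. They had the smallest totals, and among genes under 1 CPM their log2 levels deviated from the rest of their group with an SD of 1.11 and 1.06, against 0.423 to 0.812 in the other libraries; at 5 CPM or more these SDs were 0.203 and 0.174 against 0.0972 to 0.140. The main counts of genes called are therefore also given without this pair of libraries.

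The drug changed the RNA of many genes, most of them modestly, and the large changes were mostly rises. The test called 7318 of 20759 genes (35.3%), 3551 of them higher (17.1%) and 3767 lower (18.1%); 5605 genes (27%) were both called and had untreated and vincristine libraries that did not overlap. The median size of a called change was 0.38 on the log2 scale. At least 2-fold changes were found for 1045 genes (5.03%), and these were mostly rises, 873 against 172 falls. The imbalance grew with the size of the change, with 336 genes at least 4-fold higher and 23 at least 4-fold lower. All 23 of these falls were in genes with a mean under 1 CPM over the 10 libraries. Of the changes of at least 2-fold, 340 rises and 51 falls were at that level. Calls were more frequent among abundant genes, with 69.9% called over 100 CPM, 52.6% from 10 to 100 CPM and 29.7% from 1 to 10 CPM, and a list of abundant genes is to be read against these shares. Without the pair of libraries that stood apart, 6555 genes were called, of which 6225 were also among the 7318.

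**Figure D1:**
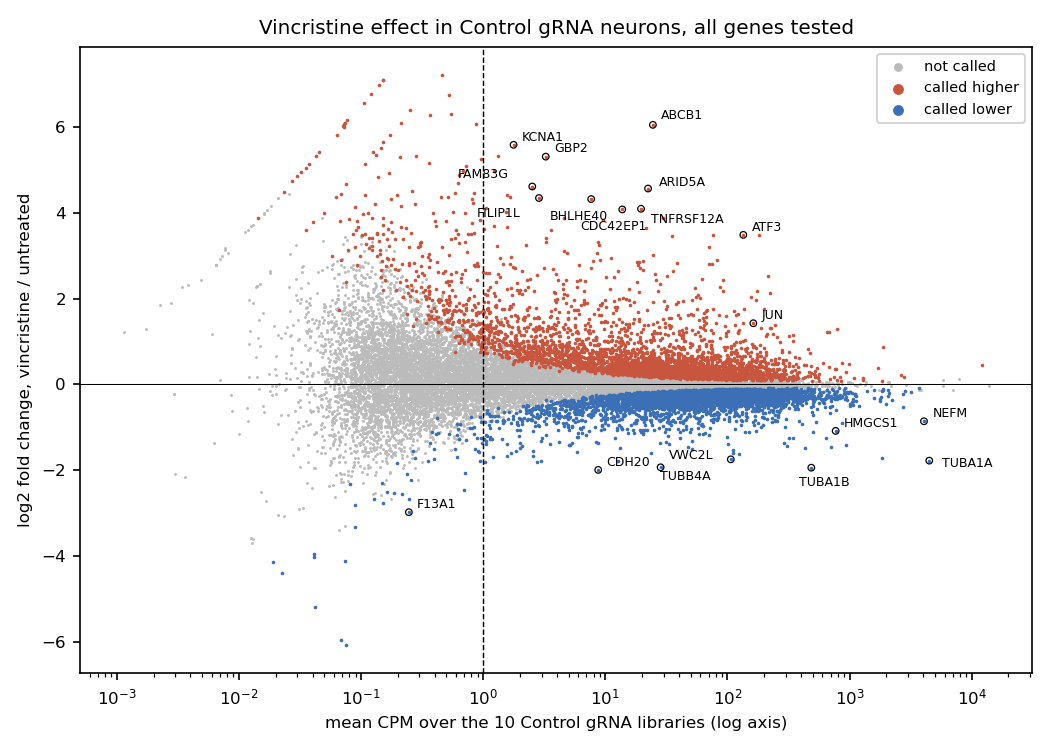
Each point is 1 of the 20759 genes tested, with its mean CPM over the 10 Control gRNA libraries (log axis) and its log2 fold change of vincristine over untreated; red and blue mark genes called higher and lower, and the dashed line marks 1 CPM. Rises reach further from 0 than falls, and the diagonal strip at the upper left holds genes with no count in any untreated library, whose fitted values are no measure of size.

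The 8 strongest rises at 2 CPM or more, taken among genes whose groups did not overlap, were led by the drug's own exporter. ABCB1 (ENSG00000085563.14; GRCh38 chromosome 7, 87503633 to 87713323), the P-glycoprotein pump that carries vinca alkaloids out of cells, stood at 0.478, 0.661, 0.695, 0.909 and 0.888 CPM in the 5 untreated libraries and at 49.8, 49.7, 49.2, 46.9 and 45.8 CPM in the 5 vincristine libraries. The groups differed 66.5-fold in their means and did not overlap (log2 fold change 6.05, SE 0.25, adjusted p = 1.28e-17). GBP2, an interferon-inducible GTPase, read 0.208, 0.0794, 0.118, 0.281 and 0.109 CPM untreated and 6.96, 7.11, 6.57, 6.68 and 4.40 CPM with vincristine (log2 fold change 5.31, SE 0.44, adjusted p = 8.34e-14). FAM83G, a scaffold that binds casein kinase 1, read 0.0208, 0.0265, 0.178, 0.606 and 0.145 CPM untreated and 4.26, 4.83, 5.50, 3.56 and 6.08 CPM with vincristine (log2 fold change 4.61, SE 0.48, adjusted p = 9.40e-11). All 3 were under 1 CPM in every untreated library and above 3 CPM in every vincristine library.

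The other 5 of these rises also started from a low level. ARID5A, an RNA-binding protein that stabilises inflammatory transcripts, went from 1.81 ± 0.200 to 43.0 ± 4.70 CPM (mean ± SD, n = 5 each; log2 fold change 4.56). TNFRSF12A, the receptor for the cytokine TWEAK, stood at 2.53, 1.85, 1.78, 3.01 and 1.76 CPM untreated and at 34.8, 39.4, 36.3, 37.2 and 37.3 CPM with vincristine (log2 fold change 4.09, SE 0.12, adjusted p = 8.58e-29). BHLHE40, a stress-responsive repressor, went from 0.712 ± 0.544 to 14.6 ± 0.816 CPM (log2 fold change 4.32). CDC42EP1, an effector of the GTPase CDC42 in actin remodelling, went from 1.55 ± 0.526 to 26.0 ± 2.69 CPM (log2 fold change 4.08), and FILIP1L, related to a filamin-binding protein, from 0.260 ± 0.113 to 5.46 ± 0.848 CPM (log2 fold change 4.34).

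The 8 strongest falls, chosen by the same rule, were smaller and joined tubulins with surface and secreted proteins. TUBA1B and TUBA1A were the most abundant of them in CPM. TUBA1B, an alpha-tubulin (ENSG00000123416.15; GRCh38 chromosome 12, 49127782 to 49131397), stood at 745, 797, 759, 755 and 805 CPM untreated and at 199.6, 204, 204, 192 and 205 CPM with vincristine, 26.0% of the untreated mean (log2 fold change -1.94, SE 0.056, adjusted p = 3.29e-24). CDH20, an adhesion molecule of the cadherin family, read 15.0, 11.9, 15.4, 12.6 and 15.1 CPM untreated and 3.71, 3.70, 2.47, 4.16 and 3.50 CPM with vincristine (log2 fold change -1.99, SE 0.097, adjusted p = 1.01e-21). VWC2L, a secreted relative of BMP antagonists, read 48.2, 41.2, 46.4, 44.6 and 44.3 CPM untreated and 11.4, 11.8, 13.2, 11.4 and 11.1 CPM with vincristine (log2 fold change -1.93, SE 0.073, adjusted p = 6.66e-26). In each of the 3 genes no library of one group reached the other, as the rule of choice required.

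The remaining falls of this rank were TUBA1A and TUBB4A, described with the tubulins, and 3 membrane or signalling genes. PCDH8, a protocadherin that acts at synapses, went from 19.5 ± 1.42 to 5.68 ± 0.800 CPM (log2 fold change -1.78). LRRC3B, a leucine-rich repeat membrane protein, went from 4.30 ± 0.288 to 1.22 ± 0.296 CPM (log2 fold change -1.80). ARHGEF26, an exchange factor for the GTPase RhoG, went from 4.60 ± 0.666 to 1.30 ± 0.479 CPM (log2 fold change -1.79). Of these 16 leading genes, 11 overlap an annotated gene on the other strand and 5 one on the same strand; the strand setting of the counting is not given in the sources used here, so reads of such neighbours cannot be told apart.

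**Figure D2:**
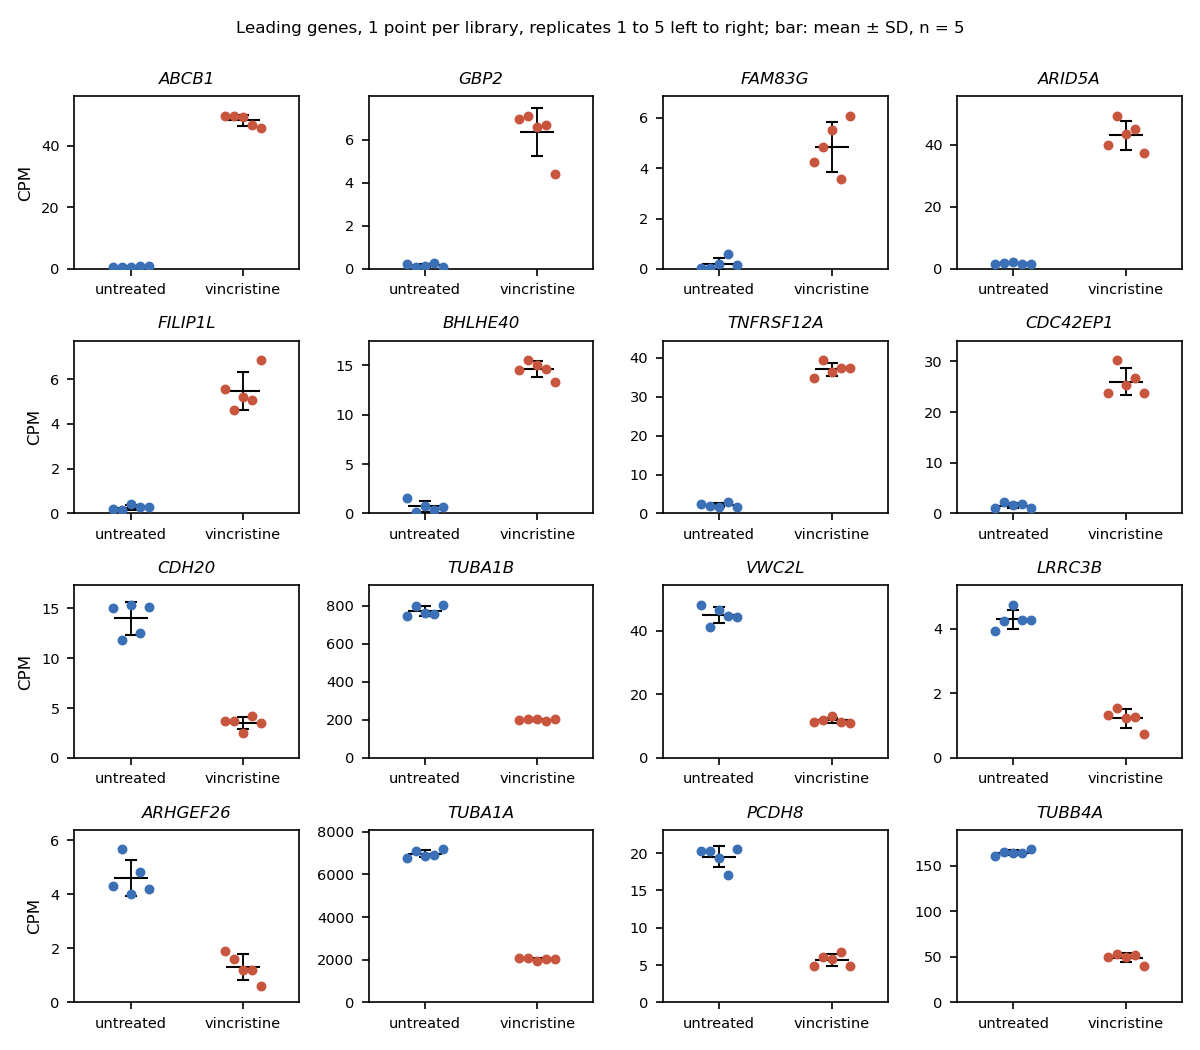
CPM (linear axis from 0) of the 8 strongest rises and 8 strongest falls at 2 CPM or more, 1 point per library in the order of replicate numbers, with mean ± SD (n = 5). The 16 genes were chosen among those whose 5 untreated and 5 vincristine libraries do not overlap. Vincristine replicate 5 is the lowest of its group for GBP2 and TUBB4A.

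Ranked by the difference in CPM, which is not corrected for gene length, instead of by fold, the largest losses were of cytoskeletal and lipid transcripts. TUBA1A fell from 6967 ± 170.1 to 2033 ± 46.2 CPM, NEFM (neurofilament medium chain) from 5253 ± 75.7 to 2895 ± 72.5 CPM and TUBB (a beta-tubulin) from 2845 ± 63.3 to 863 ± 15.3 CPM. NEFL, the neurofilament light chain, fell from 3207 ± 65.1 to 2243 ± 44.7 CPM, and SCD, the desaturase that makes monounsaturated fatty acids, from 1369.7 ± 36.8 to 518 ± 11.9 CPM. The largest gain was MT-RNR2, the large mitochondrial ribosomal RNA, which stood at 10576, 10187, 10542, 10162 and 10314 CPM untreated and at 15596, 14293, 13973, 13682 and 13245 CPM with vincristine (log2 fold change 0.45, SE 0.064, adjusted p = 2.59e-06). The protein-coding genes of the same genome did not follow it, since the 2 called of 13 tested were lower.

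Protein-coding genes with the largest gains included NES, SCG2 and STMN4. NES (nestin, an intermediate filament protein of progenitors) rose from 1325 ± 39.0 to 2432 ± 37.3 CPM, SCG2 (secretogranin II, a precursor in dense-core vesicles) from 411 ± 9.02 to 959 ± 33.6 CPM and STMN4 (a neuronal stathmin, which binds tubulin dimers) from 389.6 ± 19.5 to 911 ± 23.5 CPM. These 3 genes were already well expressed, and their gains ran from 1.83-fold (NES) to 2.34-fold (STMN4).

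To describe pathways, 39 gene lists were followed, chosen with earlier results of these data known. Each count below is to be read against the background of 35.3% called, 17.1% higher and 18.1% lower, and each median against the 0.03 of all genes tested. The direction of calls also differed by level. Over 100 CPM, 494 genes were called higher and 1245 lower of 2487 tested. From 10 to 100 CPM it was 1812 and 2066 of 7378, and from 1 to 10 CPM 894 and 398 of 4351. Falls in a list of abundant genes are to be read against these counts. Without the pair of libraries that stood apart, the number called in a list changed by 2 at most, except for the ribosomal proteins given below.

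The kinases of the JNK route moved little and in both directions, while most transcription factors at its end rose. For JNK pathway kinases and scaffolds, 4 were called higher and 7 lower of 20 tested, with a median log2 fold change of -0.047. The scaffold MAPK8IP1 (JIP1) was the largest of the rises, from 332 ± 27.1 to 587 ± 38.6 CPM (log2 fold change 0.82, SE 0.056, adjusted p = 6.44e-14). Of the damage sensors, MAP3K13 (LZK) was called higher (log2 fold change 0.53, adjusted p = 2.91e-09). MAP3K12 (DLK), at 119 to 116 CPM, was not called (log2 fold change -0.040). For AP-1, ATF and MAF factors, 11 were called higher and 0 lower of 14 tested, with a median log2 fold change of 1.01. ATF3, a partner of JUN in injured neurons, stood at 20.6, 22.6, 22.1, 21.9 and 23.6 CPM untreated and at 259.8, 255, 251, 244 and 229.6 CPM with vincristine (log2 fold change 3.48, SE 0.073, adjusted p = 6.61e-33), an 11.2-fold rise with no overlap.

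Other members of this family rose with it. FOSL2, a FOS relative that pairs with JUN, went from 1.70 ± 0.318 to 16.1 ± 0.530 CPM (log2 fold change 3.24), CREB5, a relative of ATF2, from 28.4 ± 2.90 to 154 ± 5.34 CPM (log2 fold change 2.44) and FOS from 2.19 ± 0.502 to 5.99 ± 0.866 CPM (log2 fold change 1.46). JUND and JDP2, which also dimerise with AP-1 factors, rose by 0.95 and 1.07. ATF2 itself, at 129 to 142 CPM, was not called (log2 fold change 0.14), nor was JUNB (0.15). FOSL1, FOSB, BATF and BATF2 had too few counts to be tested.

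Brakes on MAP kinases moved in both directions. For MAP kinase phosphatases, 5 were called higher and 3 lower of 10 tested, with a median log2 fold change of 0.13. DUSP16, which removes phosphate from JNK, went from 61.6 ± 2.94 to 251 ± 8.57 CPM (log2 fold change 2.03, SE 0.070, adjusted p = 2.11e-24), and DUSP8, which acts on JNK and p38, from 130.3 ± 7.86 to 284 ± 17.1 CPM (log2 fold change 1.12). DUSP6 and DUSP7, which act on ERK, fell by 0.63 and 0.32. Among immediate early genes, the fast responders to stimulation, 7 were called higher and 3 lower of 14 tested, with a median log2 fold change of 1.09. EGR1 went from 13.9 ± 1.94 to 128 ± 8.56 CPM (log2 fold change 3.20, SE 0.11, adjusted p = 1.94e-18) and ARC, an activity-regulated synaptic gene, from 2.02 ± 0.501 to 13.2 ± 1.17 CPM (log2 fold change 2.70), whereas the nuclear receptors NR4A2 and NR4A3 fell by 1.33 and 1.36.

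Most genes that trigger mitochondrial death rose, while BCL2L1 and MCL1, which hold it in check, fell slightly. BH3-only genes encode proteins that neutralise the BCL2 guardians; 5 were called higher and 1 lower of 8 tested, with a median log2 fold change of 1.10. BBC3 (PUMA) stood at 8.18, 8.25, 8.46, 7.77 and 7.81 CPM untreated and at 38.9, 45.1, 45.1, 50.4 and 38.9 CPM with vincristine (log2 fold change 2.43, SE 0.094, adjusted p = 1.78e-25). HRK, a neuronal BH3-only gene, stood at 64.2, 66.4, 55.6, 62.6 and 65.1 CPM untreated and at 288, 284, 289, 285 and 277 CPM with vincristine (log2 fold change 2.18, SE 0.053, adjusted p = 6.61e-33). For both, every vincristine library was at least 4-fold above every untreated one. BCL2L11 (BIM) went from 17.8 ± 1.30 to 51.8 ± 1.20 CPM and PMAIP1 (NOXA) from 3.82 ± 0.699 to 9.90 ± 0.633 CPM, with log2 fold changes of 1.54 and 1.38; BID was the member called lower (-0.55). Among guardians and effectors, 1 was called higher and 2 lower of 7 tested, with a median log2 fold change of -0.028; the member called higher was BOK, an effector (0.30). BCL2L1 (BCL-XL) went from 148 ± 10.7 to 109 ± 5.64 CPM (log2 fold change -0.45) and MCL1 from 229.5 ± 2.10 to 206 ± 3.93 CPM (-0.16).

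Targets of p53, the DNA damage factor, moved unevenly. Of the p53 targets, 10 were called higher and 4 lower of 20 tested, with a median log2 fold change of 0.25. CDKN1A (p21, a cell cycle inhibitor) went from 16.4 ± 3.25 to 60.0 ± 1.60 CPM (log2 fold change 1.88, SE 0.081, adjusted p = 1.11e-22) and GDF15, a secreted stress hormone, from 0.214 ± 0.0619 to 1.47 ± 0.214 CPM (log2 fold change 2.77). MDM2, the feedback inhibitor of p53, was not called at 54.0 to 55.7 CPM (log2 fold change 0.043), and TP53INP1, ZMAT3 and SESN1 were called lower (-0.38, -0.23 and -0.17). Of TNF and death receptors, 6 were called higher and 2 lower of 12 tested, with a median log2 fold change of 0.45, while 6 more had too few counts to test. Besides TNFRSF12A, the death receptor TNFRSF10B (DR5) went from 15.4 ± 0.977 to 44.2 ± 2.27 CPM (log2 fold change 1.53, SE 0.063, adjusted p = 1.70e-24), and the neurotrophin receptor NGFR was called lower (-0.41).

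The integrated stress response, in which blocked translation initiation favours ATF4 and its amino acid programme, had the highest median of the 39 lists. Of its genes, 13 were called higher and 1 lower of 16 tested, with a median log2 fold change of 1.32. DDIT3 (CHOP), its death-linked factor, stood at 19.5, 19.0, 19.5, 19.4 and 20.2 CPM untreated and at 142, 150.4, 143, 139.7 and 148 CPM with vincristine (log2 fold change 2.89, SE 0.070, adjusted p = 2.93e-30). CEBPB, a C/EBP partner of ATF factors, went from 3.49 ± 1.28 to 20.1 ± 3.58 CPM (log2 fold change 2.51), TRIB3, a pseudokinase that restrains AKT, from 19.2 ± 0.521 to 105 ± 6.77 CPM (2.45) and ATF5 from 21.9 ± 2.09 to 88.9 ± 7.10 CPM (2.03). ASNS, the asparagine synthetase often used as a readout of ATF4, moved less (0.69), and ATF4 mRNA was the member called lower, by a small amount (-0.097).

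Supply of amino acids followed in the same direction with smaller changes. Of serine and one-carbon synthesis genes, 7 were called higher and 1 lower of 11 tested, with a median log2 fold change of 0.38, the largest being ALDH1L2 (0.80) and SHMT2 (0.76), both mitochondrial folate enzymes. Of amino acid transporters, 10 were called higher and 2 lower of 13 tested, with a median log2 fold change of 0.45. SLC7A11, which imports cystine, went from 31.7 ± 6.47 to 105 ± 7.40 CPM (log2 fold change 1.73, SE 0.15, adjusted p = 3.28e-10), and SLC1A5, a glutamine carrier, from 48.4 ± 3.79 to 147 ± 10.7 CPM (log2 fold change 1.60). Of cytosolic tRNA synthetases, 11 were called higher and 5 lower of 20 tested, with a median log2 fold change of 0.10; IARS and WARS led (0.61 and 0.54), and VARS and FARSA fell by 0.30 each.

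Protein folding genes moved the other way. Of ER chaperones and unfolded protein response genes, 4 were called higher and 14 lower of 20 tested, with a median log2 fold change of -0.41. HSPA5 (BiP), the main chaperone of the endoplasmic reticulum, went from 311 ± 6.80 to 201 ± 6.87 CPM (log2 fold change -0.63, SE 0.039, adjusted p = 4.98e-18), CALR (calreticulin) from 317 ± 9.02 to 176 ± 6.60 CPM (log2 fold change -0.85) and CRELD2 from 16.6 ± 0.887 to 8.14 ± 0.806 CPM (-1.03). XBP1, a transcription factor of the same response, rose from 78.7 ± 6.88 to 149 ± 6.13 CPM (0.92), as did EDEM1, HERPUD1 and SEL1L, which serve degradation of misfolded proteins (0.76, 0.56 and 0.43). These 4 were all the members called higher.

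Heat shock, oxidative stress and protein turnover genes changed little. Of heat shock proteins, 2 were called higher and 10 lower of 15 tested, with a median log2 fold change of -0.31; HSPA1A and HSPA1B, near-identical copies that can share reads, fell by 0.57 and 0.32. Of NRF2 and antioxidant genes, 5 were called higher and 9 lower of 18 tested, with a median log2 fold change of -0.16, with ME1 and GCLM among the rises (0.70 and 0.62) and PRDX1 among the falls (-0.51). Of proteasome subunits, 1 was called higher and 23 lower of 31 tested, with a median log2 fold change of -0.27, and no member fell by more than 0.40. Of autophagy and lysosome genes, 8 were called higher and 3 lower of 23 tested, with a median log2 fold change of 0.060 (7 called in all without untreated replicate 5); the cargo receptor SQSTM1 (p62) went from 92.7 ± 3.16 to 166 ± 12.4 CPM (log2 fold change 0.84) and MAP1LC3B (LC3B) from 354 ± 7.02 to 586 ± 17.1 CPM (0.73). Of ubiquitin ligases linked to JNK, degradation and atrophy, 4 were called higher and 1 lower of 10 tested, with a median log2 fold change of 0.20.

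Tubulin mRNAs, the transcripts of the drug's target, formed one of the 2 lists with a median below -1. Of tubulins, 2 were called higher and 12 lower of 16 tested, with a median log2 fold change of -1.05. Their summed level ran from 12164 to 12823 CPM over the untreated libraries and from 3837 to 4006 CPM over the vincristine libraries, with no overlap. TUBA1A, which took the largest share of these counts, stood at 6774, 7109.8, 6871, 6902 and 7178 CPM untreated and at 2058, 2077, 1959, 2021 and 2051 CPM with vincristine (log2 fold change -1.78, SE 0.048, adjusted p = 3.60e-23). TUBB4A, TUBB4B and TUBB2A fell by 1.75, 1.59 and 1.44, and the gamma-tubulin TUBG1, which nucleates microtubules, by 1.32.

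The tubulins did not all fall. TUBB6, a class V beta-tubulin, rose from 5.98 ± 0.751 to 11.5 ± 0.578 CPM (log2 fold change 0.94, SE 0.13, adjusted p = 4.42e-08), and TUBE1 (epsilon-tubulin) from 27.6 ± 2.49 to 51.3 ± 2.71 CPM (log2 fold change 0.90). TUBA1C and TUBA8 were not called (-0.46 and -0.52). Many alpha-tubulin genes resemble each other closely, as do many beta-tubulin genes, so the split of reads within each family is uncertain. TUBBP1, a tubulin pseudogene singled out after its values were seen, also fell, from 1.47 ± 0.149 to 0.421 ± 0.157 CPM (log2 fold change -1.79).

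Partners of microtubules changed far less than tubulins. Of genes for tubulin folding, modification and autoregulation, 2 were called higher and 8 lower of 15 tested, with a median log2 fold change of -0.14; TTC5, the factor that recognises nascent tubulin in autoregulation, went from 51.0 ± 2.11 to 39.7 ± 1.04 CPM (log2 fold change -0.36, SE 0.048, adjusted p = 1.95e-08). Of microtubule-associated proteins and stathmins, 3 were called higher and 11 lower of 27 tested, with a median log2 fold change of -0.080, with MAP1A and MAP6, which stabilise microtubules, at -0.52 and -0.41. Of kinesin and dynein motors, 8 were called higher and 12 lower of 30 tested, with a median log2 fold change of -0.067; KIF26B was the largest fall among the motors (-1.14) and DYNLT3, a dynein light chain, was among the rises (0.70). Intermediate filaments were divided: VIM (vimentin) stood at 17.8, 19.0, 17.7, 19.2 and 20.5 CPM untreated and at 134, 133, 131, 136 and 121 CPM with vincristine (log2 fold change 2.80, SE 0.073, adjusted p = 9.24e-32), while NEFM and NEFL fell by 0.86 and 0.52.

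Genes known from regrowing axons were a mixed group. Of axon regeneration-associated genes, 10 were called higher and 6 lower of 22 tested, with a median log2 fold change of 0.33. GADD45B and GADD45A, stress sensors upstream of p38 and JNK, went from 0.587 ± 0.292 to 8.61 ± 0.375 CPM (log2 fold change 3.87, SE 0.32, adjusted p = 5.46e-14) and from 18.8 ± 1.38 to 89.5 ± 5.01 CPM (log2 fold change 2.25), and SMAD1, a transducer of BMP signals, from 41.8 ± 3.46 to 128 ± 10.3 CPM (1.61). GAP43, a growth cone protein, fell by 0.14, STAT3 by 0.63, and SOX11, at 67.0 to 68.9 CPM, was not called (0.039). SPRR1A, LIF, IL6 and ARG1, members known from rodent nerve injury, had too few counts to be tested. Of axon survival genes, 2 were called higher and 1 lower of 6 tested, with a median log2 fold change of 0.099; the NAD-making enzyme NMNAT2 went from 487 ± 14.5 to 562 ± 14.6 CPM (0.21) and SARM1, the NADase that executes axon degeneration, was not called (-0.0086).

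What the neurons secrete shifted as well. Of growth factors, cytokines and secreted hormones, 9 were called higher and 3 lower of 23 tested, with a median log2 fold change of 0.57, and 7 more had too few counts. STC1 (stanniocalcin, a calcium-regulating hormone) stood at 3.86, 6.22, 5.15, 6.45 and 5.53 CPM untreated and at 47.4, 43.3, 44.1, 43.7 and 41.3 CPM with vincristine (log2 fold change 3.02, SE 0.12, adjusted p = 4.44e-25). VEGFA, the main angiogenic factor, went from 26.0 ± 2.56 to 87.1 ± 2.94 CPM (log2 fold change 1.75), and FGF18, TGFA and NTF3 were called lower (-0.65, -0.89 and -0.96). Of neuropeptides and granins, 9 were called higher and 6 lower of 19 tested, with a median log2 fold change of 0.41; besides SCG2, VGF rose from 59.9 ± 7.06 to 136 ± 16.9 CPM (1.19) and GAL (galanin) from 2.31 ± 0.393 to 5.20 ± 0.574 CPM (1.17), while PCSK1, the convertase that processes such precursors, went from 94.3 ± 6.24 to 53.4 ± 2.13 CPM (-0.82).

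Surface molecules were divided between matrix and matrix receptor genes, which rose more often than they fell, and cell-to-cell adhesion and guidance genes, which fell more often than they rose. Of integrins, laminins and collagens, 12 were called higher and 3 lower of 28 tested, with a median log2 fold change of 0.58: ITGA6 and ITGA8, laminin and matrix receptors, went from 0.816 ± 0.408 to 5.43 ± 0.377 CPM (log2 fold change 2.71, SE 0.28, adjusted p = 4.49e-11) and from 1.86 ± 0.482 to 9.89 ± 1.07 CPM (log2 fold change 2.41). Of classical cadherins, 1 was called higher and 9 lower of 15 tested, with a median log2 fold change of -0.34; after CDH20, CDH7 and CDH12 fell most (-1.01 and -0.91), and CDH2 (N-cadherin), the most abundant, was not called (-0.046). Of axon guidance ligands and receptors, 9 were called higher and 16 lower of 39 tested, with a median log2 fold change of -0.093. UNC5B, a netrin receptor that can trigger death, stood at 18.2, 19.4, 17.2, 19.2 and 15.9 CPM untreated and at 119.8, 137, 121, 125 and 119 CPM with vincristine (log2 fold change 2.79, SE 0.076, adjusted p = 1.11e-28). The semaphorin co-receptors moved apart, with NRP2 from 27.2 ± 1.33 to 63.6 ± 4.65 CPM (1.22) and NRP1 from 67.5 ± 3.89 to 31.3 ± 0.563 CPM (-1.11).

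Synaptic and excitability genes showed many small changes and a few large ones. Of synaptic vesicle and release machinery, 10 were called higher and 15 lower of 30 tested, with a median log2 fold change of -0.12: SYT1, the calcium sensor of release, fell by 0.50 and SV2B by 0.65, while its relative SV2C rose by 1.16. Of voltage-gated ion channels, 10 were called higher and 11 lower of 40 tested, with a median log2 fold change of -0.068. KCNA1, the potassium channel Kv1.1, stood at 0.0415, 0.317, 0.0148, 0 and 0.0362 CPM untreated and at 3.52, 3.81, 3.34, 2.54 and 4.10 CPM with vincristine (log2 fold change 5.58, SE 0.49, adjusted p = 1.35e-12), from near 0 in each untreated library to above 2 CPM in each vincristine library. SCN4B, an accessory sodium channel subunit, went from 2.03 ± 0.346 to 7.54 ± 0.751 CPM (1.89), and KCND3, a potassium channel of the A-type current, from 11.5 ± 0.608 to 29.8 ± 0.985 CPM (1.37). Of glutamate and GABA receptors, 6 were called higher and 17 lower of 31 tested, with a median log2 fold change of -0.31; the NMDA receptor subunits GRIN3A and GRIN2B were called lower (-1.24 and -1.03), and GRM7, a metabotropic glutamate receptor, was called higher (1.88).

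Most cholesterol and energy genes fell, and the cholesterol list had the lower median. Of cholesterol synthesis and uptake genes, 0 were called higher and 23 lower of 24 tested, with a median log2 fold change of -1.02, the list with the highest share called. INSIG1, the sterol sensor that is itself a target of the factor SREBP, stood at 198, 192, 184, 178 and 183 CPM untreated and at 56.1, 57.8, 63.4, 60.8 and 66.2 CPM with vincristine (log2 fold change -1.62, SE 0.079, adjusted p = 2.35e-16). ACAT2, which joins the first building blocks of the pathway, went from 420.1 ± 20.2 to 164 ± 5.61 CPM (log2 fold change -1.36), HMGCS1, the enzyme of the step after it, from 1046 ± 19.0 to 494 ± 14.5 CPM (-1.08), and STARD4, which moves cholesterol within cells, from 45.2 ± 4.86 to 17.7 ± 0.807 CPM (-1.35). CYP51A1 was the member tested but not called (-0.049). The summed level of the list ran from 6325 to 6487 CPM over the untreated libraries and from 3199 to 3429 CPM over the vincristine libraries, so the groups did not overlap.

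Energy and translation genes moved within a narrow band. Of glycolysis genes, 0 were called higher and 17 lower of 22 tested, with a median log2 fold change of -0.29, with the glucose transporter SLC2A1 (GLUT1) lowest (-0.87). Of the nuclear genes of the respiratory chain, 0 were called higher and 39 lower of 45 tested, with a median log2 fold change of -0.26, ATP5MC1 being the largest fall (-0.81). Of mitochondrially encoded genes, 0 were called higher and 2 lower of 13 tested, with a median log2 fold change of -0.060 (1 called without vincristine replicate 5). Of cytosolic ribosomal protein genes, 1 was called higher and 21 lower of 77 tested, with a median log2 fold change of -0.050, a share of 28.6% called that lies under the 35.3% of all genes although these are abundant transcripts; without the pair of libraries that stood apart, 15 were called. Ribosomal protein genes have many processed pseudogenes that can take up their reads. Of drug efflux pumps, 2 were called higher and 1 lower of 8 tested, with a median log2 fold change of 0.27: beside ABCB1, the pumps ABCC1 and ABCC5, at 20.3 to 19.3 CPM and 211 to 215 CPM, were not called (-0.074 and 0.024). The other pump called higher, ABCC2 (1.04), lost its call without untreated replicate 1, untreated replicate 2 or vincristine replicate 5.

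**Figure D3:**
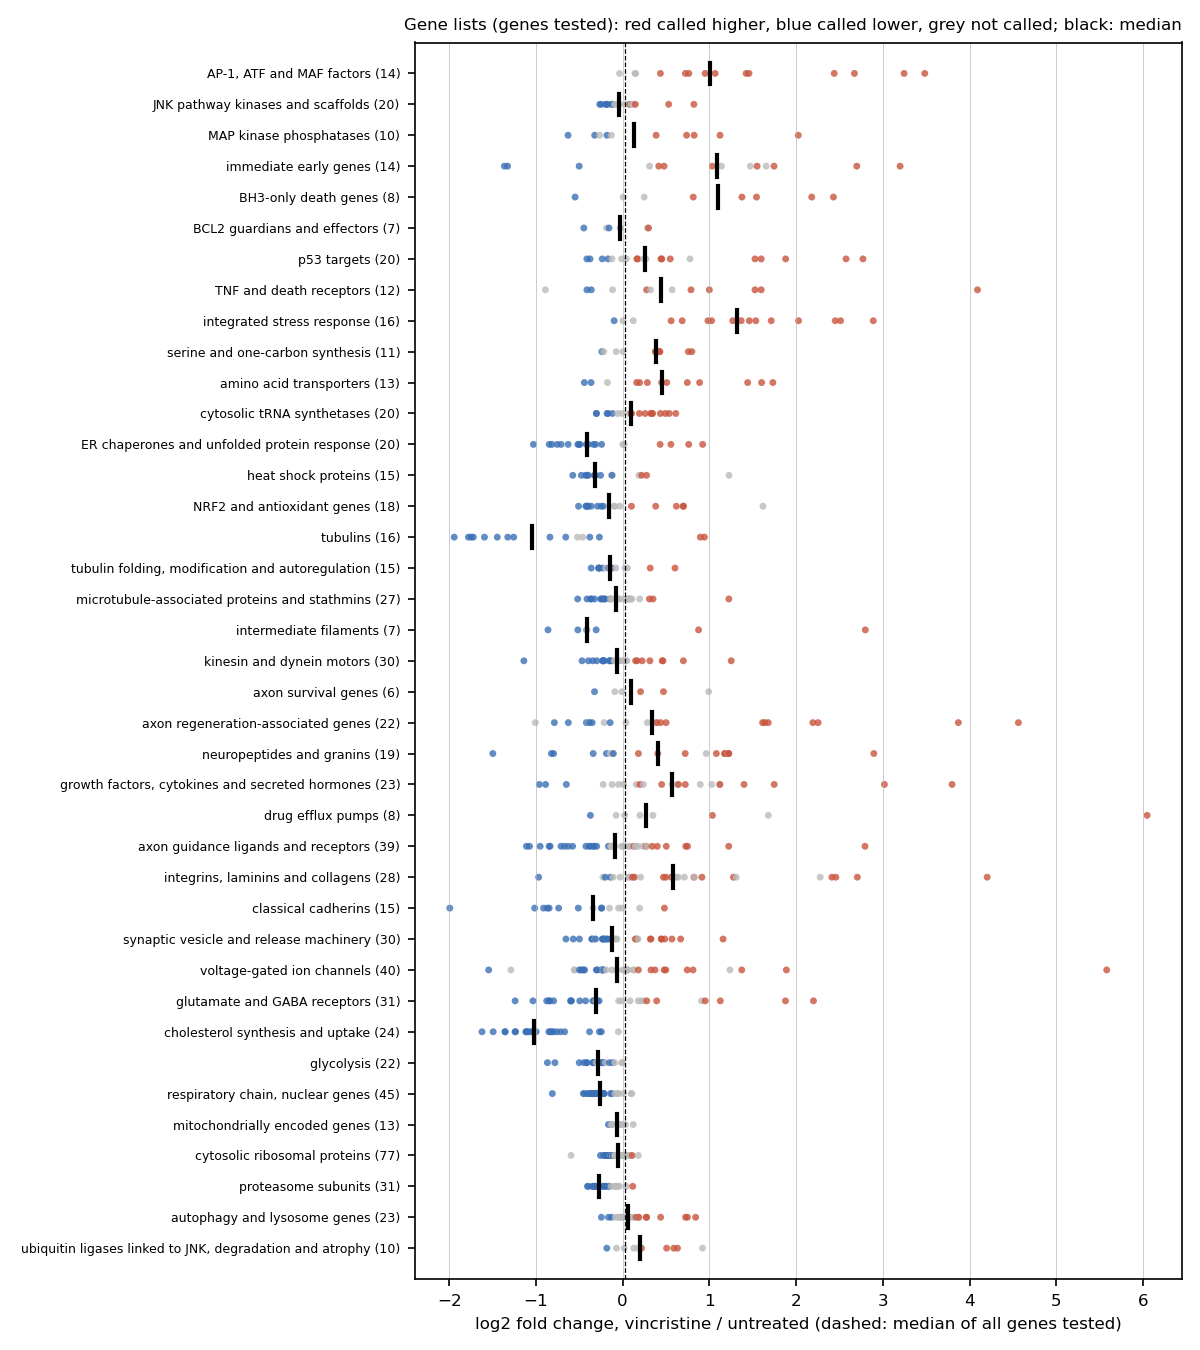
Log2 fold change of every tested member of the 39 gene lists, with the number tested in brackets; red is called higher, blue called lower, grey not called, the black bar is the list's median and the dashed line the median of all genes tested (0.03). Tubulin and cholesterol lists sit around -1, integrated stress response, BH3-only, immediate early and AP-1 lists around 1, and single members such as ABCB1 and KCNA1 stand far from their lists.

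As many AP-1 and ATF factors rose, the start regions of responding genes were searched for their known motifs. RefSeq sequences (GRCh38.p14), from 250 bases before to 50 after the start, were matched by symbol to 12371 of the 20759 genes tested. The letters TGANTCA (the AP-1 motif) were found on either strand in 10.6% of 549 such regions of genes called higher at least 2-fold, in 6.8% of 103 called lower at least 2-fold and in 4.75% of all matched. The letters TGATGNAA (a composite C/EBP and ATF motif) were in 4.92%, 1.94% and 1.92%, and TGACGTCA (the CRE, bound by ATF and CREB factors) in 3.46%, 1.94% and 3.06%. Over all 27305 regions of the table, expressed here or not, the 3 shares were 7.76%, 3.67% and 1.98%. A match of letters is not a binding site, and these shares are a description with no test.

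Of the 8 strongest rises, 6 had a region in the table, and the region of FAM83G was the one that held a motif, 2 copies of TGANTCA at 100 and 27 bases before the start (chr17:19004715-19005014, minus strand). The other 5 regions shown were singled out after their values were seen, because they belong to the death, stress and low-expressed genes described here and hold a motif: ISG20 (chr15:88638766-88639065, plus strand), DDIT3 (chr12:57520465-57520764, minus strand), BBC3 (chr19:47232618-47232917, minus strand), ATF3 (chr1:212565157-212565456, plus strand) and HRK (chr12:116881392-116881691, minus strand). Sequences run 5′ to 3′ on the gene's strand; capitals mark TGANTCA in the first 4 and TGATGNAA in ATF3 and HRK.
FAM83G: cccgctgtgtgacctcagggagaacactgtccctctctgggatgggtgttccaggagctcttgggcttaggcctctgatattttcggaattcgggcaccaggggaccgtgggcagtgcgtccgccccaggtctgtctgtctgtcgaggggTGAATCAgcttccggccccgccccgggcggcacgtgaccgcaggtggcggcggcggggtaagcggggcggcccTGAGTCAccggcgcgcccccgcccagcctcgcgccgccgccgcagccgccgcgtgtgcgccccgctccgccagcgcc
ISG20: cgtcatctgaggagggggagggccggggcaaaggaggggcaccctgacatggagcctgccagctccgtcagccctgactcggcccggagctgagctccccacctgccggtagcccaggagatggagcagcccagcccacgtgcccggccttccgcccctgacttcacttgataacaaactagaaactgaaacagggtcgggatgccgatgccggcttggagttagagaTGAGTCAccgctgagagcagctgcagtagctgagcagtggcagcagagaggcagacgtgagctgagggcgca
DDIT3: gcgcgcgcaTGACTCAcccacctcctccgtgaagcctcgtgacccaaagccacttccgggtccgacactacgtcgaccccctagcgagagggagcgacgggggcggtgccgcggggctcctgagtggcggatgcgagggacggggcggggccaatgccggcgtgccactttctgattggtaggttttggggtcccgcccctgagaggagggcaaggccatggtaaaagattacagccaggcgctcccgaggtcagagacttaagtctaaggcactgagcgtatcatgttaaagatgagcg
BBC3: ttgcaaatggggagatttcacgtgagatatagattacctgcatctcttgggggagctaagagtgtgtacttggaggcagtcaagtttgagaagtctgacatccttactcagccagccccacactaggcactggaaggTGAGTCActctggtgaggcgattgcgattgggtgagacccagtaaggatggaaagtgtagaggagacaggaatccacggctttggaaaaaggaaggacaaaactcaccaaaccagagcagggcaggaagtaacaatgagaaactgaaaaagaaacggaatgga
ATF3: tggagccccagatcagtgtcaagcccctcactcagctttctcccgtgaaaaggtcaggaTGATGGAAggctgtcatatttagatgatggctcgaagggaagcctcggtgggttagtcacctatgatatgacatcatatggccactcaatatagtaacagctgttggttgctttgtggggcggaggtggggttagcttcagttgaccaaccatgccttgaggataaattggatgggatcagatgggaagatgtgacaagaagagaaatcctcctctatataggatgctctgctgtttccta
HRK: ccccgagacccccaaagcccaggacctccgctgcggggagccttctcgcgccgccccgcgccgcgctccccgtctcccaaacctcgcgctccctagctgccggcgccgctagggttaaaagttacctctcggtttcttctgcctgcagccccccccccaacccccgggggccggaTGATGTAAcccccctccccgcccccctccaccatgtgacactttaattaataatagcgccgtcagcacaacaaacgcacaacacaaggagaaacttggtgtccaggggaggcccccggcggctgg

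Low-expressed genes, taken as those with a mean under 1 CPM over the 10 libraries, mostly rose when they were called. Of 6543 tested, 409 were called (6.25%), 351 higher (5.36%) and 58 lower (0.886%), so 85.8% of these calls were rises, against 46.3% of calls at 1 CPM or more. A change had to be large to be called at this level: the smallest was 0.75 on the log2 scale and the median size 2.26, against 0.36 for more abundant genes, and 707 genes had an unadjusted p under 0.05. Without the pair of libraries that stood apart, 318 were called, of which 264 were also among the 409. With every library thinned to the depth of experiment 1 (10.3 M counts), 1470 such genes could be tested and 191 were called, 156 of them higher; unthinned, the vincristine libraries held 39.5 to 88.4 M counts and the untreated ones 38.9 to 70.9 M.

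The counts behind these genes do not spread as single reads would. In the Control gRNA libraries, 2.37% to 9.48% of the genes with a count had exactly 1, although these libraries are the deeper ones; in the 8 WT libraries of experiment 1, sequenced to 9.65 to 14.6 M counts, it was 16.7% to 21.3%. In untreated replicate 2 and vincristine replicate 5, genes at 8 to 10 counts were more numerous than genes at 3 counts. Whether marked duplicates were counted is not stated in the sources used here, and their part in this pattern was not tested. Counting intervals assume independent reads, so for these genes the test over libraries is the measure of error.

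Among called low-expressed genes, protein-coding genes made up 55.0% of the rises, against 36.0% of all low-expressed genes tested, and long non-coding RNAs 33.6% against 41.6%. Some rises lay next to strongly induced genes: 23 of 351 (6.55%) overlapped or lay within 10 kb of a gene of 2 CPM or more that was called higher at least 2-fold, against 143 of 6543 tested (2.19%). A pair of such neighbours, singled out after their values were seen, are antisense RNAs. UNC5B-AS1 went from 0.0860 ± 0.0855 to 1.57 ± 0.174 CPM (log2 fold change 4.22) beside UNC5B, and LURAP1L-AS1 from 0.0476 ± 0.0290 to 1.14 ± 0.296 CPM (4.45) beside LURAP1L, which went from 3.79 ± 0.315 to 10.9 ± 1.12 CPM (1.53). The antisense RNAs BHLHE40-AS1 and VIM-AS1, singled out in the same way, were also called higher (2.76 and 1.65). Their calls were less firm, lost in 5 of 18 and 11 of 19 alternative analyses. Reads of an antisense RNA and its partner cannot be told apart where the strand setting is not given.

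A small set of genes was detected almost only with the drug. In 15 genes every untreated library held at most 3 counts and every vincristine library at least 10; in 0 genes was it the reverse. The genes described next encode receptors, enzymes and non-coding RNAs. AVPR1A, a vasopressin receptor, had 0, 0, 2, 0 and 0 counts untreated and 70, 69, 42, 43 and 14 with vincristine (adjusted p = 7.68e-05). Its pooled level was 97.3 times higher. The exact 95% counting interval of 26.6 to 808 rests on 2 untreated counts and assumes independent reads, so it may be too narrow. The gene was also chosen by these same counts, which the fold and its interval do not allow for. ISG20, an exonuclease induced by interferon, had 0, 0, 1, 0 and 0 and 36, 43, 34, 24 and 18 (adjusted p = 1.20e-04), and GPAT3, an enzyme of triglyceride synthesis, 0, 0, 0, 0 and 3 and 40, 37, 21, 42 and 27 (adjusted p = 8.92e-04). Of the non-coding RNAs, DIO3OS, antisense in the imprinted DIO3 region, had 0, 0, 1, 0 and 1 counts untreated and 99, 58, 54, 74 and 44 with vincristine (adjusted p = 1.55e-07), and LINC02318 0, 0, 2, 1 and 0 and 123, 68, 67, 91 and 10 (adjusted p = 2.77e-05). The antisense RNA AL590666.2 had 0, 0, 0, 2 and 3 and 29, 31, 22, 35 and 30 (adjusted p = 5.22e-04). The lowest vincristine count of LINC02318 and of AVPR1A was that of replicate 5, the shallowest of its group.

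Another 5 low-expressed genes had no count at all in any untreated library. They were among the 8 with the highest fitted change and groups not overlapping. Only a nominal fold against an assumed floor of 3 counts over the untreated group can be given. That floor holds for independent reads, and the counts described above do not spread that way, so these folds are not firm lower bounds. Against this floor, CETP (a plasma lipid transfer protein) was 25.4-fold higher, at 0.307, 0.361, 0.294, 0.194 and 0.348 CPM in the vincristine libraries. KRT20, an epithelial keratin, was 23.2-fold higher, at 0.284, 0.251, 0.311, 0.194 and 0.348 CPM. The call of KRT20 was lost with DESeq2 (adjusted p = 0.139). The non-coding genes AL138895.1 and AC100802.1 were 23.7- and 19.6-fold higher. MIR3929, at 0.114, 0.110, 0.104, 0.113 and 0.621 CPM with vincristine, was 15.0-fold higher with all libraries. It was 9.39-fold higher without vincristine replicate 5, its highest.

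Falls at this level were few, and the 6 strongest with groups not overlapping are described first. Larger fitted falls were called in genes whose groups overlapped, such as AC006236.1 (-6.07) and C15orf62 (-5.95). Both genes read 0 CPM in every vincristine library, so these fitted values are no measure of size. F13A1 (the A chain of coagulation factor XIII) stood at 0.478, 0.979, 0.281, 0.303 and 0.163 CPM untreated and at 0.0909, 0.0785, 0.0691, 0.0162 and 0 CPM with vincristine (log2 fold change -2.98, SE 0.81, adjusted p = 0.00263). FRMD7, a protein of neurite outgrowth linked to eye movement, went from 1.18 ± 0.687 to 0.213 ± 0.116 CPM (log2 fold change -2.47), and the antisense RNA C3orf67-AS1 from 1.16 ± 0.265 to 0.266 ± 0.153 CPM (-2.06). Calls of the other 3 of the 6 strongest falls with groups not overlapping were fragile. SSTR1, a somatostatin receptor, went from 0.552 ± 0.0798 to 0.155 ± 0.0910 CPM (adjusted p = 0.0478). It lost its call when any single library other than vincristine replicate 3 was left out. AC090517.2 (adjusted p = 0.0353) lost it without untreated replicate 1, 2 or 5 or vincristine replicate 2, 3 or 5, and AC096537.1 (adjusted p = 0.0147) without untreated replicate 5. Of the genes in the 39 lists, 51 were tested at this level, of which 10 were called higher and 2 lower; PTHLH, the parathyroid hormone-related protein, went from 0.0525 ± 0.0599 to 0.754 ± 0.168 CPM (log2 fold change 3.80) and SPATA18, a p53 target of mitochondrial quality control, from 0.149 ± 0.145 to 0.937 ± 0.301 CPM (2.58).

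Motif shares were also counted for this group. Of 179 low-expressed genes called higher with a RefSeq start region, 11.7% held TGANTCA, 8.38% TGATGNAA and 0.559% TGACGTCA, against 7.8%, 3.36% and 1.45% of the 2141 low-expressed genes tested with a region. In WT neurons, 136 of the 351 rises had enough counts to be tested: 59 were called higher there, 2 lower, and 121 of the 136 had a log2 fold change above 0. Of the 58 falls, 33 could be tested in WT, where 11 were called lower and 29 had a log2 fold change below 0. Over all genes tested in WT, 30.2% were called in either direction and the median log2 fold change was -1.9e-05.

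**Figure D4:**
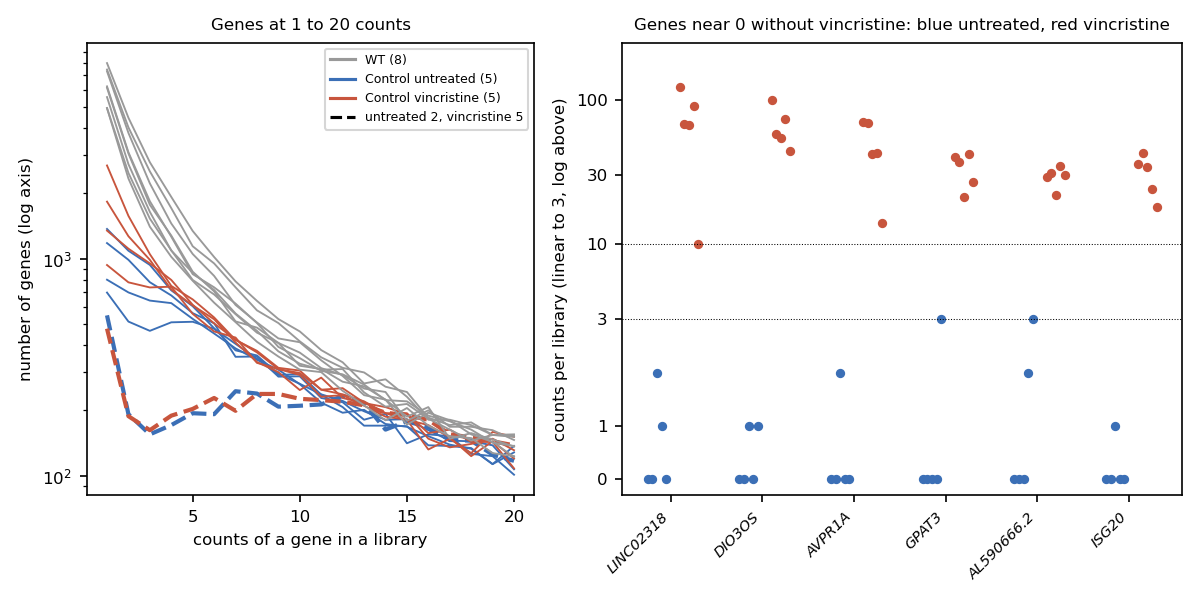
Left, the number of genes (log axis) with each count from 1 to 20, 1 line per library; the grey WT lines fall steeply from 1 count, while the Control gRNA lines start lower, and those of untreated replicate 2 and vincristine replicate 5 (dashed) fall to 3 counts and rise again. Right, counts per library of 6 genes that were near 0 without the drug (linear up to 3, log above); all untreated points lie at 3 or below and all vincristine points at 10 or above.

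The same treatment was given in experiment 1 to WT neurons of the same parental line, for which the labels name no guide, 4 untreated and 4 vincristine libraries, which allows the effect to be compared between 2 sets that share no library. In WT, 5498 of 18235 genes were called (30.2%). Of 16927 genes tested in both, 7029 were called in Control gRNA and 5356 in WT, and 3714 in both, which is 52.8% of the first list and 69.3% of the second; 3667 of these had the same direction and 47 the opposite. Of the 770 genes with at least a 2-fold called change in Control gRNA, 569 (73.9%) were called in the same direction in WT.

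Differences in the size of the effect were tested in 1 fit of the 18 libraries. Of 23134 genes, 529 were called (2.29%), 353 with a higher and 176 with a lower effect in Control gRNA than in WT. The 4 lowest differences, among called genes of at least 2 CPM on average in both sets of libraries, were those of SLC7A11, STC2, INHBE and CHAC1. SLC7A11 went from 3.75 ± 1.51 to 127 ± 19.7 CPM in WT (n = 4 each) but from 31.7 ± 6.47 to 105 ± 7.40 CPM in Control gRNA, a difference in log2 fold change of -3.35 (SE 0.24, adjusted p = 2.61e-09). STC2, a secreted stress hormone, went from 1.73 to 29.2 CPM in WT and from 17.0 to 49.0 CPM in Control gRNA (difference -2.52). INHBE, an activin subunit, went from 1.69 to 26.2 CPM and from 33.8 to 94.4 CPM (difference -2.46). CHAC1, which degrades glutathione, went from 5.26 to 38.8 CPM and from 40.5 to 59.6 CPM (difference -2.30). In all 4 the untreated level read higher in Control gRNA; levels from the 2 experiments were not tested against each other.

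For the integrated stress response as a list, 9 of 17 genes tested had a lower effect in Control gRNA than in WT and the other 8 were not called, with a median difference of -0.46, against 0.066 over all genes tested for the difference. Its summed level ran from 1059 to 1140.5 CPM in untreated Control gRNA and from 439.8 to 492 CPM in untreated WT, and with vincristine from 1825 to 2026 CPM and from 1357 to 1486 CPM. Among cytosolic tRNA synthetases 7 of 20 had a lower effect in Control gRNA and the other 13 were not called. Among ER chaperones and unfolded protein response genes, 8 of 20 had a higher (less negative) effect and 3 a lower one. The 16 tubulins had a median log2 fold change of -1.05 in Control gRNA and -1.28 in WT, with a median difference of 0.088.

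The 4 highest differences, among the same genes, were those of FILIP1L, FGFRL1, ADAMTS18 and ABCB1. ABCB1 went from 0.882 ± 0.298 to 15.7 ± 2.47 CPM in WT, a smaller rise than in Control gRNA (difference 1.92, SE 0.31, adjusted p = 6.68e-04). FILIP1L, FGFRL1 (a decoy receptor for fibroblast growth factors) and ADAMTS18 (a matrix protease) differed by 2.40, 2.17 and 2.07. FGFRL1 rose in Control gRNA from 1.49 ± 0.596 to 7.45 ± 1.08 CPM and was not called in WT, at 2.36 to 2.66 CPM. The experiments differ in engineered line, guide and depth, which cannot be told apart here. The number called is unstable: leaving out single libraries gave 316 to 2097, the highest without WT vincristine replicate 4 and the lowest without WT vincristine replicate 3, and without WT untreated replicate 1 or 3 it was 343 and 339; the 8 genes named kept their calls in all 26 alternatives.

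**Figure D5:**
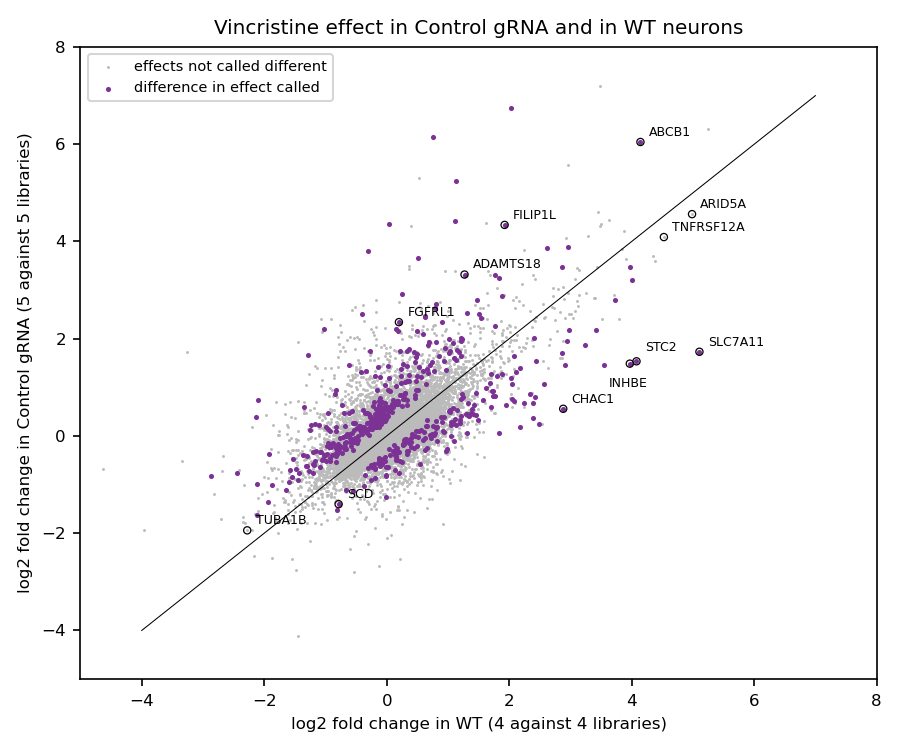
Log2 fold change with vincristine in WT (horizontal) and in Control gRNA (vertical) for the 16927 genes tested in both; purple marks 504 of them whose difference in effect was called, and the line marks equal effects. SLC7A11, STC2, INHBE and CHAC1 lie below the line and ABCB1, FILIP1L, FGFRL1 and ADAMTS18 above it, while TUBA1B and ARID5A lie close to it.

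Markers were read for the labelled cell type and for others that a culture could hold. Of 10 pan-neuronal markers, 10 were tested, 2 called higher and 6 lower. Their summed level ran from 7197 to 7971 CPM untreated and from 6422 to 6907 CPM with vincristine. The markers include the tubulin TUBB3, and its part in this lower sum was not tested. In bulk RNA fewer neurons and less RNA per neuron cannot be told apart. The glutamatergic genes SLC17A6 and SLC17A7 stood at 233 to 298 CPM and 171 to 138 CPM. The label calls the neurons cortical. Of 5 cortical markers added after the data were seen, 3 (EMX1, EMX2 and TBR1) were under 1 CPM in every library. The others were not, among them CUX2 at 36.4 to 33.0 CPM. POU4F1, a factor of sensory neurons, went from 481 ± 8.29 to 203 ± 8.95 CPM (log2 fold change -1.24, SE 0.034, adjusted p = 3.34e-31), and it makes up most of the fall of 6 peripheral markers in summed level, from 509 to 529 CPM untreated to 220.0 to 244 CPM with vincristine.

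Markers of other cells were mostly low. The 6 microglial markers summed to at most 0.522 CPM in any library, and all 6 were under 1 CPM in each. Of 6 astrocyte markers GFAP, AQP4, ALDH1L1 and GJA1 were under 1 CPM in every library, and SLC1A2, which neurons can express, made up nearly all of the sum of 179 to 254 CPM. Fibroblast markers summed to 1.51 to 1.99 CPM untreated and 2.75 to 3.51 CPM with vincristine, with COL1A2 called higher. Oligodendrocyte lineage markers summed to 12.9 to 17.8 CPM untreated and 22.7 to 25.8 CPM with vincristine, with MBP and OLIG2 called higher (0.62 and 2.24) and SOX10 under 1 CPM in every library. Of 8 genes of dividing or progenitor cells 1 was called, TOP2A (0.67), and the part of these cells in the response was not tested.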

How the data were processed

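RNA of neurons was sequenced as stranded, polyA-selected paired reads, per the labels. The authors deposited whole-number read counts per gene; per the submitters' processing notes reads were trimmed with cutadapt 3.4, aligned to GRCh38 with STAR and counted with featureCounts of Subread 2.0.1, and the deposited headers name files with duplicates marked. Whether marked duplicates were counted, the strand setting and the annotation are not given in the sources used here. Of 58440 gene identifiers, 56992 matched GENCODE 29 by version and start, and 58320 had a symbol.

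The counts were analysed with edgeR 4.0.16 (R 4.3.3): genes were kept by filterByExpr, scaled by TMM and tested with the robust quasi-likelihood test in 1 fit of all 29 libraries of experiment 2, for vincristine against untreated in Control gRNA, with Benjamini-Hochberg adjustment over all genes tested. CPM was computed from the counts here, and mean ± SD is over libraries. The difference from WT was an interaction term in a fit of the 10 Control gRNA and 8 WT libraries; the WT effect came from a fit of the 32 libraries of experiment 1. Counting intervals are exact at 95% and cover counting error only. DESeq2 1.42.0, limma 3.58.1, other scaling, filters, thinning, a replicate block and leaving out libraries were alternatives; leaving out 2 libraries at once was added after seeing the data. The scripts were tested on simulated data.

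Members and lists were chosen with earlier results of these data known. Genes are named as the 8 highest and 8 lowest called fold changes at 2 CPM or more and the 8 highest and 6 lowest under 1 CPM, with groups not overlapping. Further named genes are the most abundant of those near 0 without the drug, the 5 largest rises and falls in CPM, up to 4 called members of each list, the 4 highest and 4 lowest differences from WT (mean of at least 2 CPM in both sets), and members said not to be called. List members beyond these were named after their values were seen, to describe roles. Some genes that these rules pick are not reported here.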

Additional observations from a re-analysis of the deposited data

Results flagged for a closer look

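Libraries that lay far from the other 4 of their group were looked for in 104 groups of values, and 15 were found. The chance rate of about 1 in 20 groups assumes independent, normally spread values. These groups share libraries and some hold mostly 0 counts, so that rate is no yardstick here. Of these, 7 were vincristine replicate 5 and 2 were untreated replicate 2. On the first principal component untreated replicate 2 scored -115 and vincristine replicate 5 scored 54.2, and on the second -53.0 and -104. Vincristine replicate 5 was the lowest of its group for GBP2 (4.40 CPM), TUBB4A (40.4 CPM), and, at 0 CPM, for C3orf67-AS1 and SSTR1, and the highest for MIR3929 (0.621 CPM).

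Among untreated libraries, single high or low values were AC096537.1 at 0.689 CPM and GPAT3 at 0.0544 CPM in replicate 5. In replicate 4, FAM83G read 0.606 CPM and SSTR1 0.693 CPM. In replicate 3, AVPR1A read 0.0296 CPM and ISG20 0.0148 CPM. Values for AVPR1A, ISG20 and GPAT3 rest on 1 to 3 counts against 0 in the other 4 untreated libraries.

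The effect of vincristine differed between Control gRNA and WT, by the interaction test of edgeR, for 8 named genes. The log2 difference was 2.40 for FILIP1L, 2.17 for FGFRL1, 2.07 for ADAMTS18 and 1.92 for ABCB1. It was -3.35 for SLC7A11, -2.52 for STC2, -2.46 for INHBE and -2.30 for CHAC1.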

How the results depend on the processing

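The counts of genes called in Control gRNA (7318, and 3551 higher) stayed within 1.5 times of these values in all alternatives run, with 6756 to 7139 called when 1 library was left out. With a filter at a mean of 1 CPM, 669 changes of at least 2-fold were called in place of 1045, since fewer genes were tested, and no low-expressed gene was left. For low-expressed genes (409, 351 higher), limma voom with quality weights called 854 (748 higher); the cause was not tested. Thinning to the depth of experiment 1 left 191 (156 higher) of 1470 tested. Setting the limit at 0.5 CPM gave 228 (196 higher) and at 2 CPM 672 (564 higher). Leaving out 1 library gave 326 to 412. The number of genes whose effect differed from WT (529, 353 higher) was the least stable: 1038 (560 higher) with DESeq2, 1956 (1267 higher) with limma voom and 1016 (658 higher) with all 61 libraries in the fit. Leaving out 1 library gave 316 to 2097 (194 to 1399 higher), with 2097 without WT vincristine replicate 4; the cause was not tested.

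Over all genes tested, same-numbered libraries did not deviate together (r from -0.042 to 0.042). The labels do not say whether the numbers pair libraries, and these correlations cannot exclude it. With a replicate block 7244 genes were called in Control gRNA, 403 of them low-expressed. For the difference from WT the block gave 259 (171 higher) in place of 529. Of 193 called genes examined one by one, 177 kept their calls in every alternative, 16 lost them in some, and 0 reversed. Of 780 recomputed counts of calls in the gene lists, 8 moved by over 1.5 times. Under 1 CPM no called change was smaller than 0.75 on the log2 scale, and what set this limit was not tested.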
